A study of Mus musculus with 12 samples.

Results

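The 10 genes described here were chosen by name, as 3 guardians (Bcl2, Bcl2l1, Mcl1), 2 effectors (Bax, Bak1) and 5 BH3-only genes (Bcl2l11, Bbc3, Pmaip1, Bid, Bad). Every probe set, a group of short probes read as 1 signal, that the platform's probe table gives to one of these symbols was taken. This gave 29 of 45037 probe sets other than controls, for 9 of the 10 genes. Mcl1 had 6 probe sets, Bcl2 and Bcl2l11 had 5 each, Bcl2l1 had 4, Bid had 3, Bak1 and Bad had 2 each, and Bbc3 and Pmaip1 had 1 each. Bax had none listed and was not analysed here. Of the 29, 28 passed the filter used for testing, which asked that a probe set exceed its array's median signal on 3 or more of the 12 arrays and left 24332 probe sets in all. The exception was Bcl2l1 1426050_at, with signals of 1.49 to 19. Probe sets whose names end in x_at or s_at hold probes that can also bind other transcripts and are less specific. Values called signals are the deposited linear MAS5 signals, and differences are on the log2 scale with their SE. Probes differ in brightness, so levels are compared only within 1 probe set.

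Proteins of the BCL2 family meet at the outer membrane of mitochondria and set whether a stressed cell lives or enters apoptosis. The guardians BCL2, BCL-XL (encoded by Bcl2l1) and MCL1 hold the pore-forming effectors BAX and BAK in check. The BH3-only proteins, among them BIM (Bcl2l11), PUMA (Bbc3), NOXA (Pmaip1), BID and BAD, bind the guardians, and some of them also activate the effectors. In activated lymphocytes, interleukin-2 is known to sustain guardian genes, and BIM is known as a main trigger of T cell death once cytokine is withdrawn.

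The RNA came from splenocytes of DBA/2 mice aged 10 weeks, cocultured for 9 days with KLN-205, a squamous carcinoma line from mouse lung. In all 4 groups the tumour cells carried a SEMA3A knockdown and 100 units/mL of interleukin-2 was given every 3 days. The SEMA6A+SEMA3A group had tumour cells that overexpressed SEMA6A, a transmembrane semaphorin, together with 10 µg/mL of purified SEMA3A, a secreted one. The SEMA6A group had the overexpressing tumour cells alone, the SEMA3A group had the purified protein alone, and the control group had neither. Each group had 3 arrays. The labels do not say how SEMA3A was knocked down or SEMA6A overexpressed, whether either tumour line was 1 clone, whether splenocytes were pooled, or whether tumour cells were removed before RNA was extracted. Nor do they give separate cultures or animals for the 3 arrays of a group, so each p-value rests on the spread among these arrays alone, which may be technical.

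One array stood apart. On SEMA6A replicate 2 the Gapdh 3'/5' signal ratio, a measure of RNA integrity, was 1.22, against 0.767 to 0.818 on the other 11 arrays, and the transferrin receptor ratio was 35.7, against 5.93 to 23.3. The latter ratio also differed between groups, at 5.93 to 12.2 with both factors, 17.2 to 18.1 in the SEMA3A group and 6.82 to 9.34 in the control group. On SEMA6A replicates 1 and 3 it was 8.39 and 23.3. The part of these group differences in the results was not tested. SEMA6A replicate 2 gave the highest or lowest signal of the 12 arrays for 19 of the 28 tested probe sets of the family, 12 of them the highest, and for 43.2% of all 24332. Its part in the results was not tested, and results of the family that rest on it are given with and without it. Of the marker genes, 5 of 6 for T cells passed the filter (Cd4 did not), as did 4 of 4 for NK cells, 1 of 4 for B cells (not Cd79a, Ms4a1 or Pax5), 3 of 7 for macrophages and neutrophils, 4 of 6 for mast cells and basophils and 8 of 12 for squamous carcinoma (not Krt14, Krt17, Trp63 or Pkp1). The summed signal of the squamous genes was 2558 to 2852 in the SEMA6A+SEMA3A group, 2392 to 3643 in the SEMA6A group, 2311 to 2883 in the SEMA3A group and 2438 to 2901 in the control group. That of the NK genes was 11281 to 12062, 8956 to 11763, 9779 to 12494 and 11408 to 11525 in the same order of groups. In such mixed RNA, fewer cells of a type and less RNA per cell cannot be told apart.

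No gene of the family passed the test in any of 6 comparisons (limma over all probe sets, Benjamini-Hochberg adjusted p under 0.05). The count was 0 of 28 each time, and the background share was 0% in each of the 6 comparisons. At an unadjusted limma p under 0.05, 1 of the 28 was higher and 1 lower in SEMA6A against control, where 4.92% of all probe sets were higher and 4.48% lower. In SEMA3A against control the counts were 0 and 0, beside 3.85% and 4.29% of all. In SEMA6A+SEMA3A against control they were 0 higher and 1 lower, beside 2.9% and 3.09%. Against SEMA3A, SEMA6A+SEMA3A had 0 higher and 4 lower, beside 5.94% and 5.28%. Against SEMA6A it had 1 higher and 2 lower, beside 4.96% and 5.76%. For the interaction, the difference made by SEMA6A in the presence of SEMA3A protein minus that made in its absence, 0 lay above 0 and 2 below, beside 7.31% and 8.07% of all. The 4 lower probe sets of SEMA6A+SEMA3A against SEMA3A (14.3% of 28) were the share furthest above its background, and the other shares lay near or below theirs.

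**Figure D1:**
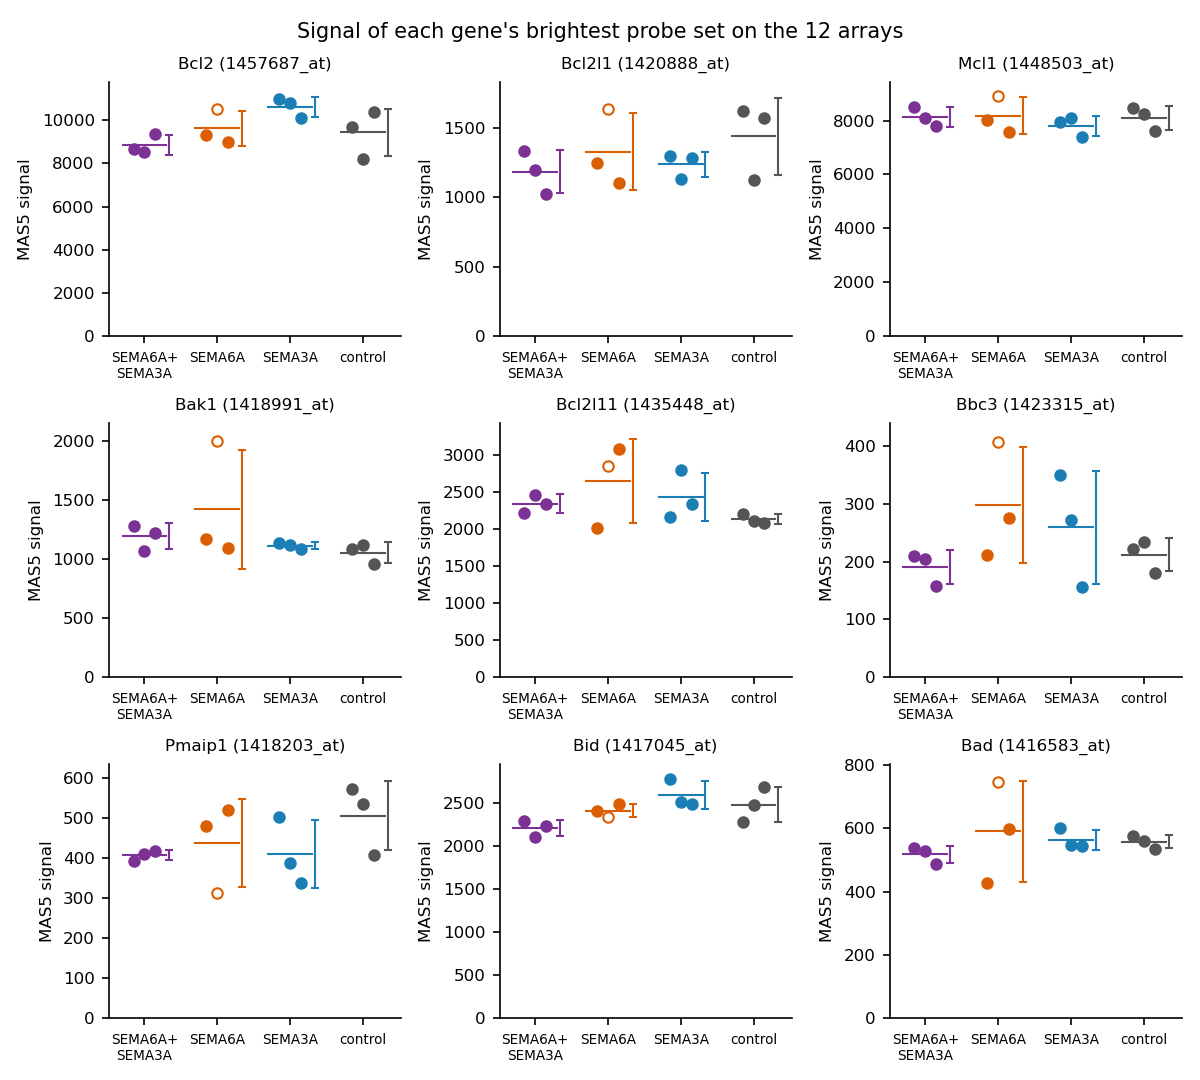
Deposited MAS5 signal (linear scale, from 0) of the brightest probe set of each of the 9 genes on the 12 arrays, by group. Points are arrays, the line is the group mean and the bar is 1 SD (n = 3). The open circle is SEMA6A replicate 2. The groups overlap in most panels, and in those of Bcl2, Bid and Bad the 3 SEMA6A+SEMA3A arrays lie below the 3 SEMA3A arrays.

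The direction of the differences was less even than that of all probe sets. Against control, 18 of 28 probe sets of the family lay above 0 in the SEMA6A group (median 0.05 on the log2 scale) and 21 of 28 in the SEMA3A group (median 0.09), but 6 of 28 in the SEMA6A+SEMA3A group (median -0.09). Of all 24332 probe sets, between 48.8% and 50% lay above 0 in these comparisons. These 3 comparisons share the control arrays. With both factors, 24 of 28 were below the SEMA3A group (median -0.18) and 25 of 28 below the SEMA6A group (median -0.15). The interaction was below 0 for 23 of 28 (median -0.26, beside 0.01 for all). Of all probe sets, 50.2%, 50.2% and 51.3% lay above 0 in the same order. All 3, and SEMA6A+SEMA3A against control, use the same SEMA6A+SEMA3A arrays, so their counts are not separate results. Without SEMA6A replicate 2, 16 of 28 lay above control in the SEMA6A group (median 0.02), 19 of 28 with both factors were below the SEMA6A group (median -0.08) and the interaction was below 0 for 21 of 28 (median -0.22). Since several probe sets read 1 gene, the counts are not of independent genes. Taking the brightest probe set of each of the 9 genes, 9 of 9 were lower with both factors than with SEMA6A alone, but 5 of 9 without SEMA6A replicate 2. The interaction was below 0 for 6 of 9, and for 4 of 9 without that array. Lower than with SEMA3A alone were 6 of 9, and lower than in the control group 7 of 9.

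The medians of marker lists also lay off 0 in these comparisons. The 13 squamous carcinoma probe sets had a median log2 difference of 0.57 in SEMA6A against control. At an unadjusted limma p under 0.05, 3 of them were higher there, beside 4.92% of all probe sets. Their median was -0.49 in SEMA6A+SEMA3A against SEMA6A and -0.70 for the interaction. Without SEMA6A replicate 2 these medians were 0.35, -0.35 and -0.39, and 1 of the 13 was higher against control at that p. The 6 NK cell probe sets had medians of -0.51, 0.45 and 0.24 in the same order, and of -0.28, -0.01 and 0.04 without that array. The 9 T cell probe sets had a median interaction of 0.37, and of -0.02 without it. For the 5 mast cell and basophil probe sets it was -0.58, and -0.43 without it. With limma, 0 of the marker probe sets passed the adjusted threshold in any comparison. The part of these markers in the results of the family was not tested.

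**Figure D2:**
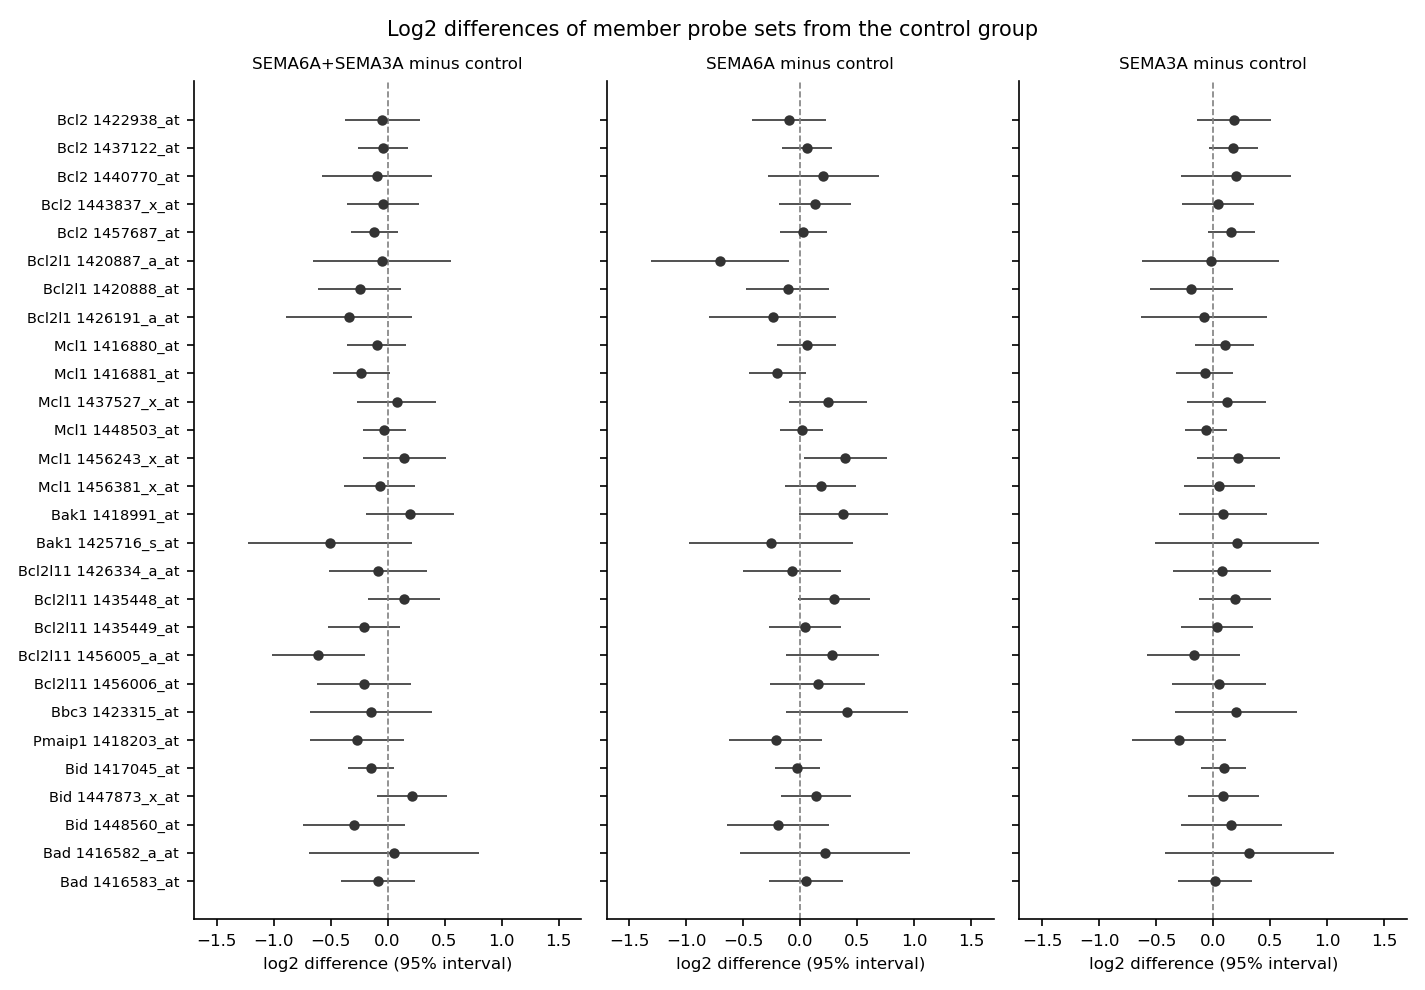
Log2 differences from control of the 28 tested probe sets (rows) in the SEMA6A+SEMA3A, SEMA6A and SEMA3A groups, with 95% intervals from limma. Nearly all intervals include 0, and the median half-width is 0.355. In the SEMA6A+SEMA3A panel 22 of 28 points lie below 0.

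The precision of these values bounds what could have been seen. The 95% interval of a difference between 2 groups reached 0.187 to 0.743 to each side on the log2 scale, with a median of 0.355. In SEMA6A against control and in SEMA3A against control, 27 of 28 intervals lay within 1 on the log2 scale to either side, and in the other comparisons between 2 groups 25 or 26 did. Changes of 2-fold were thus outside the interval for most of the family. At the median precision the interval of a difference under 0.355 included 0. That is not the limit of the adjusted test, where a difference of -0.89 on Bcl2l11 1456005_a_at did not pass. A number of 3 arrays per group limits the precision.

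Among the guardians, Bcl2, the first known gene of the family, gave strong signals from all 5 of its probe sets. The brightest, 1457687_at, was at 8679.8, 8516 and 9370.5 in the SEMA6A+SEMA3A group, 9323, 10513 and 8999.5 in the SEMA6A group, 10976, 10778 and 10097 in the SEMA3A group and 9685, 8220.3 and 10368 in the control group. Every SEMA6A+SEMA3A array lay below every SEMA3A array, while both groups overlapped the control group. The group means stood in the order SEMA3A, SEMA6A, control and SEMA6A+SEMA3A, and only the first and the last were separate. SEMA6A against control was 0.03 ± 0.09 on the log2 scale, and -0.05 ± 0.09 without SEMA6A replicate 2. The log2 difference between SEMA6A+SEMA3A and SEMA3A was -0.28 ± 0.09 (SE, 95% interval -0.48 to -0.07; limma, adjusted p = 0.364). A second probe set, 1437122_at, was also separate between these groups, at 2696, 2841 and 2934 in the SEMA6A+SEMA3A group against 3403, 3248 and 3148 in the SEMA3A group. All 5 Bcl2 probe sets had the same sign there, from -0.29 to -0.08, and all 5 were between -0.12 and -0.04 in SEMA6A+SEMA3A against control. The other 3 ranged over the 12 arrays from 716 to 1126 on 1422938_at, from 1260.4 to 2459 on 1440770_at and from 2186 to 3304 on 1443837_x_at, with overlapping groups. In SEMA3A against control all 5 were above 0, from 0.04 to 0.20, none past the threshold. For the interaction all 5 were below 0, from -0.49 to -0.13, and 1457687_at had -0.30 ± 0.13 (limma, adjusted p = 0.309). Without SEMA6A replicate 2 all 5 were still below 0, from -0.28 to -0.10, and 1457687_at had -0.22 ± 0.12.

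Bcl2l1 encodes BCL-XL, a guardian that activated T cells induce. Its brightest probe set, 1420888_at, was at 1334, 1197 and 1024 in the SEMA6A+SEMA3A group, 1246, 1639.5 and 1104 in the SEMA6A group, 1295, 1135 and 1285 in the SEMA3A group and 1622, 1124 and 1571 in the control group. All groups overlapped, and the SEMA6A+SEMA3A group against control gave -0.25 ± 0.17 (limma, adjusted p = 0.941). A much dimmer probe set, 1420887_a_at, was at 169, 117 and 120.2 in the SEMA6A+SEMA3A group, 131, 54 and 68.9 in the SEMA6A group, 115, 126 and 183 in the SEMA3A group and 126, 133 and 152 in the control group. Here SEMA6A replicates 2 and 3 were below the 10 other arrays, and SEMA6A replicate 1 was among them. The difference of SEMA6A from control was -0.70 ± 0.28 (limma, adjusted p = 0.526) and that of SEMA6A+SEMA3A from SEMA6A was 0.66 ± 0.28 (limma, adjusted p = 0.457). Without SEMA6A replicate 2 these became -0.47 ± 0.28 and 0.42 ± 0.28. The probe sets of Bcl2l1 disagreed in this last comparison, since 1420888_at gave -0.14 ± 0.17 and 1426191_a_at, just inside the filter at signals of 25.8 to 59.5, gave -0.10 ± 0.26.

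Mcl1 encodes a short-lived guardian that lymphocytes need for survival. Its brightest probe set, 1448503_at, was the steadiest of the family, at 8505, 8104 and 7794 in the SEMA6A+SEMA3A group, 8032, 8919.7 and 7567 in the SEMA6A group, 7938, 8102 and 7378 in the SEMA3A group and 8446, 8228 and 7598 in the control group. All 4 groups overlapped and the highest array was 1.21 times the lowest. Over the 5 comparisons between groups its log2 differences ran from -0.06 to 0.04, and its 95% intervals stayed between -0.25 and 0.22. Thus a change of Mcl1 by this probe set of more than 0.25 lay outside each interval. Its other probe sets did not all follow it. The signal of 1456243_x_at was 2979.6, 3082 and 3092 in the SEMA6A+SEMA3A group, 2733, 5089 and 3397 in the SEMA6A group, 3397, 3167 and 3057 in the SEMA3A group and 2942, 2636 and 2764 in the control group. SEMA6A replicate 2 was far above the other 11 arrays, and the SEMA6A+SEMA3A and SEMA3A arrays were all above the control arrays. SEMA6A against control gave 0.39 ± 0.17 (limma, adjusted p = 0.526), and 0.14 ± 0.10 without that array. Against SEMA6A, SEMA6A+SEMA3A gave -0.25 ± 0.17, and 0.01 ± 0.10 without it. The same array was the highest for 1437527_x_at, at 5734, and for 1456381_x_at, at 3561, and the lowest for 1416881_at, at 1821. For 1416881_at the SEMA6A+SEMA3A arrays, at 2227, 2283 and 2039, were all below the SEMA3A arrays, at 2395, 2516 and 2385, and below the control arrays, at 2620.4, 2629 and 2491. On 1416880_at they were likewise below the SEMA3A arrays, at 2266, 2210.1 and 2223 in the SEMA6A+SEMA3A group against 2506, 2698 and 2469 in the SEMA3A group, with a difference of -0.20 ± 0.12. For 1416881_at the differences were -0.16 ± 0.12 from SEMA3A and -0.23 ± 0.12 from control (limma, adjusted p = 0.615 and 0.864).

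**Figure D3:**
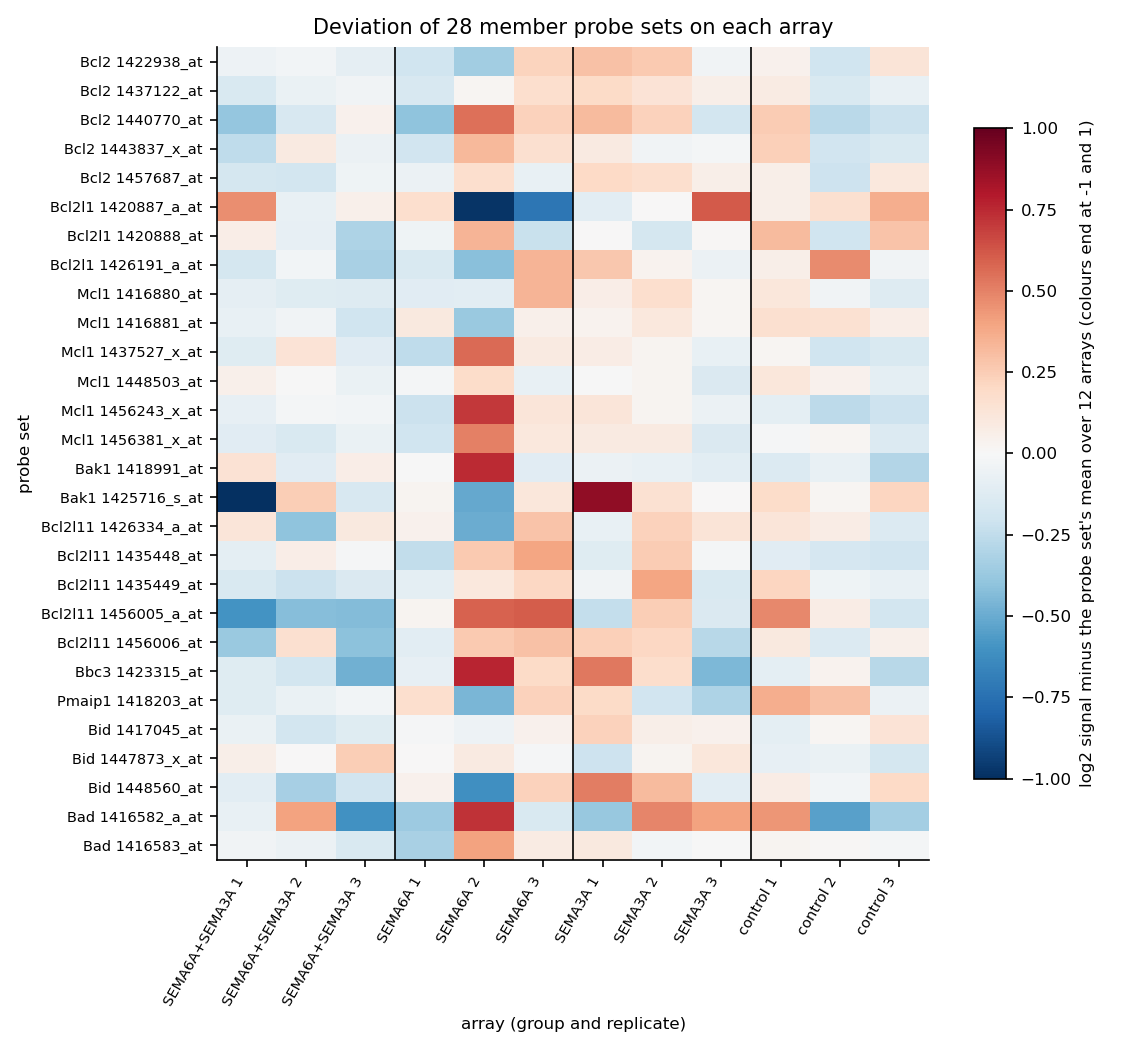
Deviation of each of the 28 tested probe sets (rows) from its own mean over the 12 arrays (columns), in normalized log2 units, with colours ending at -1 and 1. Vertical lines separate the groups. The column of SEMA6A replicate 2 holds many of the strongest colours in both directions, and the 3 SEMA6A+SEMA3A columns are mostly pale blue.

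Of the effectors, Bak1 alone could be read. It encodes BAK, which resides in the outer mitochondrial membrane and forms pores there once activated. Its probe set 1418991_at was at 1283, 1069.6 and 1223 in the SEMA6A+SEMA3A group, 1171, 1998 and 1089.6 in the SEMA6A group, 1139, 1118 and 1085 in the SEMA3A group and 1085, 1120.1 and 957 in the control group. SEMA6A replicate 2 was the only array above 1283, and the other 11 arrays overlapped across groups. The difference of SEMA6A from control was 0.38 ± 0.18 (limma, adjusted p = 0.533), and 0.11 ± 0.11 without that array. The dim probe set 1425716_s_at was at 29.4, 105 and 69 in the SEMA6A+SEMA3A group, 80.2, 53.9 and 93.3 in the SEMA6A group, 172, 97.3 and 77.9 in the SEMA3A group and 95.6, 81.1 and 91.5 in the control group. It varied 5.84-fold between arrays, the widest span among the tested probe sets, and SEMA6A+SEMA3A against SEMA3A gave -0.72 ± 0.33 (95% interval -1.44 to 0.00, limma, adjusted p = 0.446), with overlapping groups. For that comparison 1418991_at gave 0.11 ± 0.18, of the other sign.

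The BH3-only genes held the difference with the smallest p of the family, in Bcl2l11, which encodes BIM. Its probe set 1456005_a_at was at 1135, 1273 and 1277 in the SEMA6A+SEMA3A group, 1753, 2634 and 2629.8 in the SEMA6A group, 1477, 2040.2 and 1562 in the SEMA3A group and 2423, 1852 and 1529.6 in the control group. All 3 SEMA6A+SEMA3A arrays were below all 9 others, and the other 3 groups overlapped. The means were 1229 ± 80.8 in the SEMA6A+SEMA3A group, 2339 ± 507 in the SEMA6A group, 1693 ± 304 in the SEMA3A group and 1935 ± 452 in the control group (SD, 3 arrays each). SEMA6A+SEMA3A against SEMA6A gave -0.89 ± 0.19 (95% interval -1.30 to -0.48), yet with limma over all 24332 probe sets it had an adjusted p = 0.455. Against control the difference was -0.61 ± 0.19 (limma, adjusted p = 0.588), and against SEMA3A it was -0.44 ± 0.19 (limma, adjusted p = 0.421). Each factor alone gave a difference from control that did not pass, 0.28 ± 0.19 for SEMA6A and -0.17 ± 0.19 for SEMA3A.

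The interaction of 1456005_a_at was -0.72 ± 0.27 (limma, adjusted p = 0.267). With limma it had an adjusted p = 0.0456 without SEMA6A replicate 1 and an adjusted p = 0.0409 with array weights, the only calls of the family in any setting run. In those settings 5.62% and 9.73% of all 24332 probe sets were called for the interaction, and 3.57% of the family, so the family's share was below the background. Without SEMA6A replicate 2 the interaction was -0.63 ± 0.27 and the difference of SEMA6A+SEMA3A from SEMA6A was -0.80 ± 0.20. The other 4 Bcl2l11 probe sets showed smaller differences. Against SEMA6A they ran from -0.36 to -0.00, all of the same sign. The next in size, 1456006_at, was at 165, 251 and 159 in the SEMA6A+SEMA3A group, 200.4, 274 and 286 in the SEMA6A group, 273, 268 and 171 in the SEMA3A group and 246, 199 and 223 in the control group, with overlapping groups. The brightest, 1435448_at, was at 2211, 2463 and 2339 in the SEMA6A+SEMA3A group, 2012, 2852 and 3079.7 in the SEMA6A group, 2158, 2789 and 2339 in the SEMA3A group and 2206, 2110.2 and 2086 in the control group. On it the SEMA6A+SEMA3A arrays were all just above the control arrays, with a difference of 0.14 ± 0.15 (limma, adjusted p = 0.992), so the direction against control was opposite to that of 1456005_a_at. On 1435449_at the SEMA6A+SEMA3A arrays, at 601, 573 and 603, were below the SEMA6A arrays, at 621, 737 and 792, and below the control arrays, at 808, 660.0 and 637. The dim 1426334_a_at ranged from 196 to 349 and gave -0.00 ± 0.20 against SEMA6A. The sources used here do not tie these probe sets to transcripts of Bcl2l11.

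**Figure D4:**
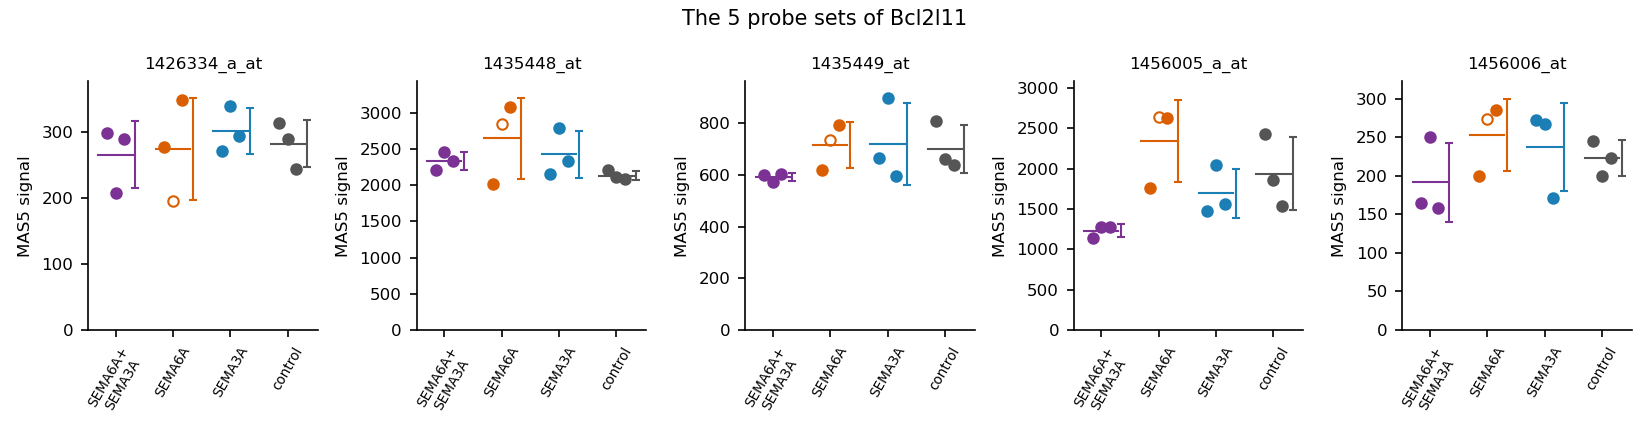
Deposited MAS5 signal (linear scale, from 0) of the 5 Bcl2l11 probe sets by group. Points are arrays, lines are means and bars are 1 SD (n = 3), and the open circle is SEMA6A replicate 2. On 1456005_a_at the SEMA6A+SEMA3A arrays, at 1135 to 1277, lie below all others, and on 1435448_at they do not.

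Bbc3 encodes PUMA, a BH3-only protein that p53 and FOXO factors induce. Its single probe set, 1423315_at, was dim and spread widely, at 210.1, 204 and 157 in the SEMA6A+SEMA3A group, 211, 407 and 276 in the SEMA6A group, 349.6, 272 and 156 in the SEMA3A group and 221, 234 and 180.2 in the control group. The SEMA6A+SEMA3A arrays were just below the lowest SEMA6A array and overlapped the SEMA3A and control arrays. The difference from SEMA6A was -0.55 ± 0.25 (95% interval -1.08 to -0.02, limma, adjusted p = 0.457), and -0.31 ± 0.24 without SEMA6A replicate 2, which was the highest array. SEMA6A against control gave 0.41 ± 0.25, and 0.17 ± 0.24 without that array. The interaction was -0.75 ± 0.35 (limma, adjusted p = 0.328).

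Pmaip1 encodes NOXA, which binds MCL1 and promotes its breakdown. Its probe set 1418203_at was at 393, 411 and 418 in the SEMA6A+SEMA3A group, 481, 314 and 521 in the SEMA6A group, 504, 389 and 338 in the SEMA3A group and 574, 535 and 409 in the control group. The control mean was the highest, but every group overlapped it. Differences from control were -0.27 ± 0.19 in the SEMA6A+SEMA3A group, -0.22 ± 0.19 in the SEMA6A group and -0.30 ± 0.19 in the SEMA3A group, and no adjusted p from limma was under 0.674. For Pmaip1, all 3 tested Bcl2l1 probe sets and Mcl1 1416881_at, both single factors lay below control, unlike most of the family. For Pmaip1 the SEMA6A part of this rested on SEMA6A replicate 2, its lowest array. Without that array the Pmaip1 difference of SEMA6A from control was 0.00 ± 0.16.

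Bid encodes a BH3-only protein that caspase 8 cleaves, which links death receptors to mitochondria. Its brightest probe set, 1417045_at, was at 2286, 2104 and 2225 in the SEMA6A+SEMA3A group, 2407, 2331 and 2485 in the SEMA6A group, 2779, 2504 and 2489 in the SEMA3A group and 2272, 2477 and 2684 in the control group. All SEMA6A+SEMA3A arrays lay below all SEMA3A and all SEMA6A arrays, and they overlapped the control arrays at 1 array. The difference from SEMA3A was -0.24 ± 0.09 (limma, adjusted p = 0.404), and that from SEMA6A was -0.12 ± 0.09. The dimmer 1448560_at was at 252, 218 and 234 in the SEMA6A+SEMA3A group, 277, 179.7 and 336 in the SEMA6A group, 410.4, 359 and 247 in the SEMA3A group and 304, 269 and 313 in the control group. Its difference from SEMA3A was -0.45 ± 0.21 (limma, adjusted p = 0.44), with the groups touching on the deposited scale. The third, 1447873_x_at, with signals of 105 to 149, pointed the other way, with 0.12 ± 0.14 against SEMA3A and 0.21 ± 0.14 against control.

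Bad encodes a BH3-only protein that survival kinases hold inactive by phosphorylation. Its probe set 1416583_at was at 537, 527 and 487 in the SEMA6A+SEMA3A group, 428, 747 and 597 in the SEMA6A group, 600.3, 547 and 542 in the SEMA3A group and 576, 559.8 and 536 in the control group. The SEMA6A group held both the lowest and the highest array, and the other 3 groups lay between 487 and 600.3. All SEMA6A+SEMA3A arrays were below all SEMA3A arrays, with a difference of -0.10 ± 0.15 (limma, adjusted p = 0.82). Its differences over the 5 comparisons between groups ran from -0.14 to 0.05, with 95% intervals between -0.46 and 0.38. The less even 1416582_a_at spread from 236 to 636 with all groups overlapping.

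On the normalized scale, groups that did not overlap were counted in the family and over all probe sets. With both factors against SEMA3A, 8 of 28 probe sets of the family were wholly lower and 0 wholly higher, where 10.4% of all were wholly lower and 10.1% higher. These 8 were from Bcl2 (2), Mcl1 (2), Bid (2), Bcl2l11 and Bad. With both factors against SEMA6A, 4 of 28 were wholly lower and 0 wholly higher, where 7.09% of all were lower and 6.82% higher. These were from Bcl2l11 (2), Bbc3 and Bid. With both factors against control, 5 were wholly lower and 3 wholly higher, where 8.91% of all were lower and 7.93% higher. In SEMA6A against control, 1 was wholly higher and 0 lower, beside 6.29% and 5.81% of all. In SEMA3A against control, 1 was wholly higher and 0 lower, beside 8.5% and 8.28%. The share for both factors against SEMA3A was the furthest from its background, with no probe set past the adjusted threshold.

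**Figure D5:**
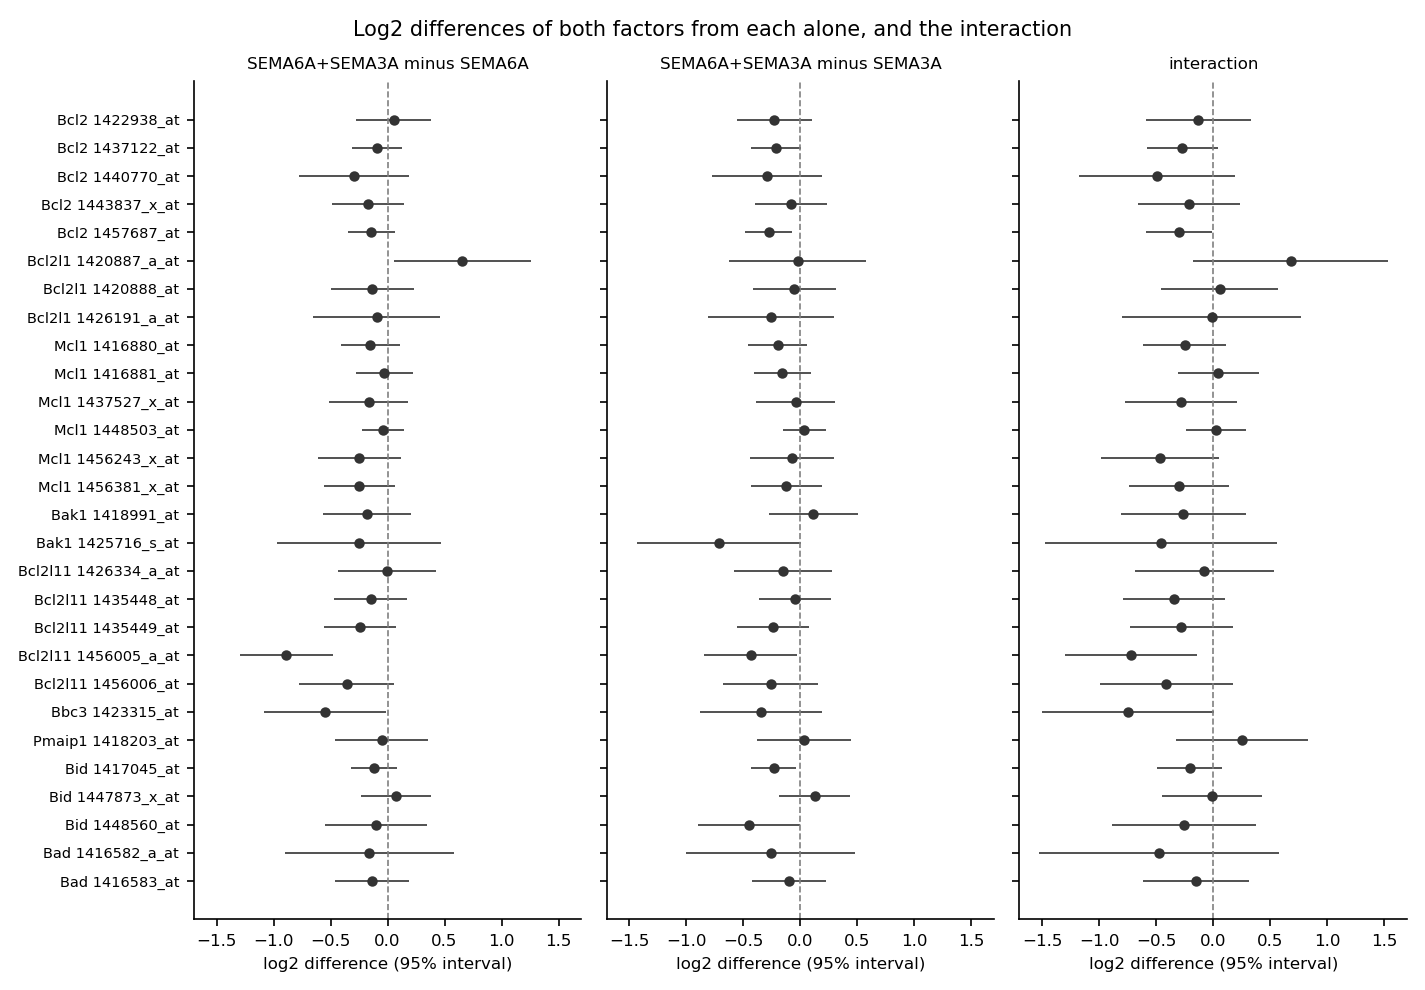
Log2 differences of the 28 tested probe sets (rows) with 95% limma intervals, for SEMA6A+SEMA3A minus SEMA6A (left), SEMA6A+SEMA3A minus SEMA3A (middle) and the interaction (right). Most points lie left of 0 in each panel, and Bcl2l11 1456005_a_at, at -0.89 in the left panel, is the furthest left there.

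Promoter sequence was examined for the motifs of factors known to control the family, FOXO (TGTTTAC) and STAT (TTCNNNGAA), each on both strands. From RefSeq's table for GRCm38.p6, 15 promoters of 9 of the genes were taken, from 250 bases before to 50 after the start. Pmaip1 was left out of this search, and Bax, which had no probe set listed, was in it. The background of 32851 promoters was not limited in this way. The FOXO motif was in 2 of the 15, 1 of Bcl2l11 and 1 of Bbc3, and in 3.65% of all 32851 promoters. The STAT motif was in 0 of the 15 and in 8.30% of all, so no match of one overlapped the other. The 2 sequences with a FOXO match are printed, 5′ to 3′ on the + strand with the match in capitals. That of Bcl2l11 is chr2:128125788-128126087, with the match on the opposite strand starting at base 24, and that of Bbc3 is chr7:16310011-16310310, with the match starting at base 84.
Bcl2l11: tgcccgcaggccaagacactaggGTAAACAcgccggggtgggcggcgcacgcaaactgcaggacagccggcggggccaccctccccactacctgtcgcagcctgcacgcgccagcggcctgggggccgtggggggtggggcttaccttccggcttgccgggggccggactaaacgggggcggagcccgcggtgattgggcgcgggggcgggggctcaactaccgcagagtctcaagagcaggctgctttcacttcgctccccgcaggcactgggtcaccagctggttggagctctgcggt
Bbc3: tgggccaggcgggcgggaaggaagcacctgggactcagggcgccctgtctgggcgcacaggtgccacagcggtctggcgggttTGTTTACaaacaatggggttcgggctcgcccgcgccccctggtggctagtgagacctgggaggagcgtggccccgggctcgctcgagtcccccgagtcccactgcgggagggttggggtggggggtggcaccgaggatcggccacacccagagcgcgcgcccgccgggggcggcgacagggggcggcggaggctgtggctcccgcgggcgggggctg
A match describes letters only and shows neither binding nor control.

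The genes around the family were described from lists, with no test of a list. The signal of Foxo1, which encodes a FOXO factor, was 317, 284 and 364 in the SEMA6A+SEMA3A group, 389, 463 and 497 in the SEMA6A group, 398, 538 and 308 in the SEMA3A group and 362, 321 and 250.3 in the control group on 1416982_at. All SEMA6A arrays were above all control arrays and above all SEMA6A+SEMA3A arrays, with differences of 0.51 ± 0.18 for SEMA6A against control and -0.44 ± 0.18 for SEMA6A+SEMA3A against SEMA6A (limma, adjusted p = 0.526 and 0.457). Pim2, a kinase that phosphorylates BAD, was at 2759, 2639.7 and 3089 in the SEMA6A+SEMA3A group, 3174, 5505 and 4549 in the SEMA6A group, 4767, 4315 and 2857 in the SEMA3A group and 2869.6, 2713 and 2525 in the control group on 1417216_at. Its values were high in SEMA6A replicates 2 and 3 and SEMA3A replicates 1 and 2 and between 2525 and 3174 elsewhere, and the interaction was -1.14 ± 0.29 (limma, adjusted p = 0.241). Ywhaz, whose 14-3-3 protein retains phosphorylated BAD, gave probe sets of opposite sign in SEMA6A+SEMA3A against SEMA3A, -0.56 ± 0.11 on 1448218_s_at and 0.72 ± 0.21 on 1436981_a_at (limma, adjusted p = 0.249 and 0.35), and its other 5 between -0.08 and 0.16. Of 47 tested probe sets for 20 regulators of the family, 0 passed in any comparison, and the list's medians ran from -0.11 to 0.02.

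Other relatives of BCL2 had 12 tested probe sets for 9 of 16 listed genes, and 0 passed in any comparison. Bik, a BH3-only gene, was at 121, 111 and 73.7 in the SEMA6A+SEMA3A group, 99.8, 51.1 and 73.6 in the SEMA6A group, 63.3, 52.7 and 59.1 in the SEMA3A group and 109, 80.8 and 93.4 in the control group on 1449836_x_at. SEMA3A arrays were all below the control and SEMA6A+SEMA3A arrays, and the interaction was 1.01 ± 0.33 (limma, adjusted p = 0.246), of opposite sign to most of the family. The smallest p of this list was that of Bnip3, a mitochondrial BH3-like gene of the hypoxia response, with an interaction of -1.24 ± 0.25 (limma, adjusted p = 0.241).

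The apoptosome, caspase and mitochondrial death genes had 20 tested probe sets for 12 genes, of which 0 passed in any comparison. Casp8, the caspase that cleaves BID, was at 6543, 6871 and 6701 in the SEMA6A+SEMA3A group, 7663, 7460.1 and 6984 in the SEMA6A group, 7673, 7711 and 7252 in the SEMA3A group and 7476, 7277 and 8130.2 in the control group on 1424552_at. All SEMA6A+SEMA3A arrays were below all others on the deposited scale, with a difference of -0.20 ± 0.07 from control (limma, adjusted p = 0.682). Cycs, cytochrome c, was higher with both factors than with SEMA3A by 0.47 ± 0.09 on 1456071_a_at, with the lowest adjusted p of the list between 2 groups (limma, adjusted p = 0.249). The inhibitors of apoptosis proteins, which block caspases, had 15 tested probe sets for 5 genes, with 0 past the threshold. Within that list the smallest p for the interaction belonged to Birc6, with -0.98 ± 0.23 on 1442959_at, and its 6 probe sets ran from -0.98 to 0.03, with 5 below 0. The 5 of Xiap disagreed more, with -1.15 ± 0.33 on 1453385_at and the other 4 between 0.23 and 0.48. Signals of 1453385_at were near the floor, at 26.4 to 64.6. Its control and SEMA6A+SEMA3A arrays were all below their array medians, so it passed the filter only through the other groups.

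For each gene, the genes of most similar pattern were sought by Pearson's r over the 12 arrays among 10779 genes, which describes arrays that share groups and normalization. Bbc3 was most like Map6 (r = 0.97, Spearman's rho 0.97) and Tmcc3 (0.95, rho 0.96), with r of 0.95 and 0.93 without SEMA6A replicate 2. Bcl2 was most like Fam168a (0.97, rho 0.95) and Ing1 (0.95, rho 0.91), with r of 0.96 and 0.94 without it. The most like genes were Fam53c for Bcl2l11 (0.93), Sypl for Bid (0.92), Gpr132 for Bcl2l1 (0.88), Ncoa4 for Mcl1 (0.86) and Yme1l1 for Pmaip1 (0.83). Without SEMA6A replicate 2 these r were 0.92, 0.92, 0.84, 0.81 and 0.75 in the same order. Spearman's rho over the 12 arrays was 0.80, 0.93, 0.87, 0.83 and 0.85. Each r is the highest of a wide search, and how high it would be for unrelated genes was not tested. For Bak1 the most like was Timm44, where r was 0.95 over 12 arrays and 0.71 without SEMA6A replicate 2. For Bad it was Nfatc2, with 0.94 and 0.86. Spearman's rho over the 12 arrays was lower, at 0.60 for Timm44 and 0.69 for Nfatc2.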

How the data were processed

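RNA was measured on 12 arrays, 3 for each group, from 6 µg of total RNA per array, per the labels. Each deposited value is a linear intensity of a probe set. The submitters' processing notes name MAS5, without a version. Each array's trimmed mean was 500. Array medians ran from 42.7 to 53.7. Gene names come from the platform's probe table, in which 34945 of 45037 probe sets name 1 gene.

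The deposited intensities were transformed as log2(signal + 16), which understates differences of dim genes, and quantile normalized, since array medians differed 1.26-fold. Probe sets above their own array's median on at least 3 arrays (24332) were fitted with limma 3.58.1 in R 4.3.3, with 1 mean per group over all 12 arrays and a trended prior (8 residual and 5.28 prior degrees of freedom). Here p-values were adjusted by Benjamini-Hochberg over all of them at 0.05. The fit was run on simulated data of independent normal values with no outlying array. That run does not show how the fit handles an array such as SEMA6A replicate 2. Python 3.11.15 and pandas 2.3.3 made the summaries.

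All tested probe sets of the 9 genes could be named, with 2 per comparison of smallest p for other lists and the most correlated genes for patterns. Members and lists were chosen with earlier results of these data known. Alternatives were leaving out each array, array weights, a replicate block, an untrended prior, a fit of the compared arrays alone, 1 probe set per gene, other filters and pseudocounts, and no further normalization. Scanner files were not used here.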

Additional observations from a re-analysis of the deposited data

How the results depend on the processing

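Counts of probe sets past the adjusted limma threshold, 0 in every comparison as reported, depended on the setting. Without further normalization SEMA6A+SEMA3A against control gave 1. With only the arrays compared it gave 52, and SEMA6A+SEMA3A against SEMA3A gave 40. Array weights estimated gene by gene gave 1 for SEMA6A against control, 150 for SEMA6A+SEMA3A against control, 797 against SEMA3A, 7 against SEMA6A and 2368 for the interaction. Leaving out each array in turn gave 0 to 212 for SEMA6A against control, 0 to 1 for SEMA3A against control, 0 to 7, 0 to 2 and 0 to 1 for both factors against control, SEMA3A and SEMA6A, and 0 to 1368 for the interaction. The highest of these for SEMA6A against control and for the interaction came without SEMA6A replicate 1, which leaves replicate 2, the array that stood apart, as 1 of 2. Without SEMA6A replicate 2 the largest count was 7, for SEMA6A+SEMA3A against control, and without SEMA3A replicate 3 the interaction gave 106. The cause was not tested.

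With a replicate block all 6 counts were 0. Arrays with the same number correlated between -0.287 and 0.084 in their deviations from group means. Arrays with different numbers were not compared in this way, so these values cannot decide whether the numbers pair the arrays. Of 3506 differences of the family recomputed over 22 settings, 129 changed sign, 28 of them with a reported size above 0.1. Of the family, Bcl2l11 1456005_a_at passed in 2 cases, its interaction with array weights (-0.88, adjusted p = 0.0409) and without SEMA6A replicate 1 (-0.91, adjusted p = 0.0456), where 9.73% and 5.62% of all probe sets passed, against 3.57% of the family. Over the 20 of 22 settings that gave its interaction, it lay between -0.91 and -0.57.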

Other observations

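Targets of p53 other than the family, a list of 12 genes, had 16 tested probe sets for 10 genes, and 0 passed in any comparison (limma, adjusted p under 0.05). In SEMA6A against control 14 of the 16 were below 0, with a median of -0.20 on the log2 scale, and 3 were lower at an unadjusted p under 0.05, as were 4.48% of all probe sets. For these 3, of Ccng1, Mdm2 and Tnfrsf10b, SEMA6A replicate 2 was the lowest array. Without it 14 of 16 were below 0, the median was -0.18 and 1 of the 16 was lower at that p. The interaction was above 0 for 13 of 16, with a median of 0.23 beside 0.01 for all probe sets, the opposite side from the family's -0.26. Tnfrsf10b, a death receptor gene, was at 65.5, 68.4 and 55.5 in the SEMA6A+SEMA3A group, 44.3, 20.5 and 27.8 in the SEMA6A group, 41.1, 51.2 and 62.1 in the SEMA3A group and 61.3, 51.5 and 49.3 in the control group on 1422344_s_at. SEMA6A arrays were all below the SEMA6A+SEMA3A and control arrays, SEMA6A replicate 2 lowest. They also lay below their own array medians, 44.9, 48.4 and 49.4, so the probe set was near the floor there. The differences were 0.74 ± 0.24 for SEMA6A+SEMA3A against SEMA6A and -0.66 ± 0.24 for SEMA6A against control (limma, adjusted p = 0.455 and 0.526). Without SEMA6A replicate 2 they were 0.56 and -0.48. Mdm2, which encodes the ubiquitin ligase of p53, was at 402, 351 and 309 in the SEMA6A+SEMA3A group, 468, 229 and 493 in the SEMA6A group, 566, 568 and 431 in the SEMA3A group and 562, 560.3 and 543 in the control group on 1427718_a_at. Its SEMA6A+SEMA3A arrays were all below the control arrays, with a difference of -0.62 ± 0.23 (limma, adjusted p = 0.715), and SEMA6A replicate 2 was the lowest array. Trp53inp1, a p53-induced gene, pointed the other way from most of the list, with an interaction of -0.93 ± 0.38 (limma, adjusted p = 0.283).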
